A study of Mus musculus with 10 samples.

Results

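Spinous keratinocytes, the cells of the first layers above the basal layer of the epidermis, were examined in single-cell RNA counts of mouse embryonic back skin. A cell was taken as spinous when it held at least 20 unique molecular identifiers (UMIs, counted RNA molecules) of Krt1 and Krt10 together, under 20 of Lor and under 30 of Col1a1 and Col3a1 together. It also had to pass the limits that made a kept cell, which were more than 1000 but fewer than 6000 genes detected and less than 10% mitochondrially encoded UMIs. This rule found 1125 cells among 55482 kept cells in 10 libraries. The same libraries held 9771 basal cells, defined by at least 20 UMIs of Krt5 and Krt14 together with Krt1 and Krt10 under 20, and 90 granular cells, defined by at least 20 UMIs of Lor. Because the 5 genes of the rule chose the cells, their levels are given as a description and were not tested.

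The study removed MOF, the acetyltransferase of lysine 16 on histone H4 that is encoded by Kat8, or QPC, the respiratory complex III subunit encoded by Uqcrq, from skin epithelium. MOF cKO embryos carried Mof fl/fl and QPC cKO embryos Uqcrq fl/fl, each with Krt14-Cre, which acts in epithelial cells and not in the dermis of the same skin. Controls were wild-type or heterozygous littermates, on a mixed C57BL/6J and CD-1 background, and sexes were not separated. The E15.5 libraries were controls 2 and 3 and MOF cKO replicates 5 and 6, as the labels number them, the E16.5 libraries were 2 of each kind, and a single control and a single QPC cKO library made up E17.5. As described for this E15.5 skin, MOF loss was even in the epidermis of MOF cKO replicate 5 and patchy, or mosaic, in that of replicate 6. Stage cannot be told apart from chemistry, since the 10x Genomics 3' chemistry was v3.1 at E15.5, v2 at E16.5 and v3 at E17.5, and from the gene list, which held 27998 genes at E16.5 and 32285 at the other stages.

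Basal keratinocytes divide on the basement membrane and build filaments of keratins 5 and 14. On leaving it they stop dividing, switch to keratins 1 and 10, strengthen their desmosomes and start to make lipids and precursors of the barrier, while Notch signalling and transcription factors such as Klf4, Grhl3 and Ovol1 drive the switch. Granular cells above them crosslink loricrin, involucrin and small proline-rich proteins into the cornified envelope. Keratins 6, 16 and 17 are scarce in healthy suprabasal epidermis and are made in wounds and inflamed skin, together with the antimicrobial proteins S100a8 and S100a9.

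The label was checked with a single differentiation marker outside the rule, Krtdap, and with basal markers. Krtdap was higher than in basal cells in all 10 libraries, while the basal markers were lower in only part of the libraries. The other spinous genes outside the rule are not given one by one. Krtdap, which encodes a secreted protein of differentiating keratinocytes, stood at 3080.1 to 9780.2 counts per 1000000 UMIs (CPM) in the spinous cells of the 10 libraries and at 536 to 3379 CPM in basal cells of the same libraries. In every library the spinous value was above that library's basal value. The summed share of 10 spinous genes (Krt1, Krt10, Krtdap, Sbsn, Dmkn, Dsc1, Dsg1a, Calml3, Lypd3 and Mt4) was 1.94% to 5.03% of UMIs in spinous cells and 0.179% to 0.663% in basal cells. This sum includes the 2 keratins that define spinous cells as high and basal cells as low. Its order was therefore in part fixed by the rule, and it is a description and no check of the label. Basal and hemidesmosome genes, among them the Krt5 and Krt14 that define the basal cells, together took a smaller share of UMIs in spinous than in basal cells of the E15.5 libraries and the E16.5 controls. The order was the other way round in the E16.5 MOF cKO libraries, with 3.4% in spinous against 1.1% in basal cells of replicate 1 and 2.48% against 1.44% in replicate 2, and at E17.5, with 3.23% against 2.82% in the control and 2.63% against 2.16% in QPC cKO. In E16.5 MOF cKO replicate 1 most of that share was Krt14, at 31059 CPM in spinous cells. The median cell held 154, 354 UMIs of Krt1 and Krt10 in the E15.5 controls (replicates 2 and 3), 209 and 170.5 in MOF cKO (replicates 5 and 6), 336 and 273 in the E16.5 controls, 208 and 268 in MOF cKO, 261 in the E17.5 control and 164 in QPC cKO. Basal keratins were abundant in many members: Krt5 and Krt14 together exceeded Krt1 and Krt10 in 30.5 to 75% of the spinous cells of a library. Just inside the threshold, with 20 to 24 UMIs of Krt1 and Krt10, were between 0 and 14 cells of a library, and just outside it, with 15 to 19 UMIs, between 0 and 21.

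The depth of the spinous cells differed much more between stages than between groups. Their summed counts were 2633329 to 7517910 UMIs at E15.5, 145479 to 635626 at E16.5 and 2036498 and 4904154 at E17.5, with medians of 11237 to 29204 UMIs per cell. The E16.5 MOF cKO libraries rested on only 8 and 10 spinous cells, and the largest single cell gave 39.5% and 24.3% of their UMIs. Between libraries, 1 spinous cell barcode was shared, by the E15.5 control replicates. The study describes the skin of both MOF stages as coming from pairs of control and MOF cKO embryos, and p-values measure the spread between 2 libraries of a group.

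Part of the spinous cells carried almost no mitochondrial RNA, in proportions that differed by stage and genotype. Cells with under 0.5% mitochondrial UMIs were 1 of 126 and 10 of 328 spinous cells in the E15.5 controls, 29 of 151 in MOF cKO replicate 5 and 15 of 176 in replicate 6, or 0.794%, 3.05%, 19.2%, 8.52% in that order. At E16.5 they were 4 of 22 and 18 of 49 in the controls and 7 of 8 and 8 of 10 in MOF cKO, or 18.2%, 36.7%, 87.5%, 80%. At E17.5 the shares were 5.41% of 185 cells in the control and 5.71% of 70 in QPC cKO. Both MOF cKO libraries lay above both controls at each stage. Basal cells of this kind were rarer in all 10 libraries, 0.0433 to 26.9%, and reached their highest shares in the E16.5 MOF cKO libraries, with 5 of 21 and 7 of 26. Such cells held fewer genes, with medians of 2325 and 1856 detected genes in the E16.5 MOF cKO libraries and 1190.5 and 1519 in the controls, against 3868 and 3388 in the other control cells. The E16.5 comparison is for this reason given with and without them.

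Spinous cells made up a small share of dissociated skin, and their share of all kept cells was lower in cKO than in control at E16.5 and at E17.5. The share (95% Wilson interval, counting error only) was 1.5% (1.26 to 1.78) and 3.6% (3.23 to 4) in the E15.5 controls and 1.48% (1.27 to 1.74) and 1.65% (1.43 to 1.91) in MOF cKO, so the groups differed by less than the controls did from each other. At E16.5 it was 1.93% (1.28 to 2.9) and 2% (1.52 to 2.64) in the controls and 1.12% (0.567 to 2.19) and 0.734% (0.399 to 1.35) in MOF cKO, with both cKO libraries below both controls. At E17.5 it was 3.46% (3 to 3.98) in the control and 1.14% (0.907 to 1.44) in QPC cKO, intervals that did not overlap between 1 library each. Among keratinocytes the order at E16.5 was the other way round. Of cells with at least 20 UMIs of basal, spinous or granular keratinocyte genes, spinous cells were 5.14% and 11.9% in the E15.5 controls against 15.9% and 11.6% in MOF cKO, 11.7% and 9.57% in the E16.5 controls against 26.7% and 27.8% in MOF cKO, and 12% in the E17.5 control against 7.04% in QPC cKO. The E16.5 MOF cKO shares of keratinocytes were 8 of 30 and 10 of 36 cells, with intervals of 14.2 to 44.4% and 15.8 to 44%. Both overlapped that of E16.5 control replicate 1, 7.86 to 17.1%. Basal cells were 27.5% and 26.5% of kept cells in the E15.5 controls against 7.78% and 12.5% in MOF cKO, and 13.4% and 18.1% in the E16.5 controls against 2.93% and 1.91%. At E17.5 they were 25.3% in the control and 15.1% in QPC cKO. Shares are fractions of what a dissociation released, and they were not tested. At E17.5 the upper limit of 6000 genes removed many deep spinous cells: without it 366 of 6950 cells (5.27%) met the rule in the control and 223 of 7666 (2.91%) in QPC cKO.

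**Figure D1:**
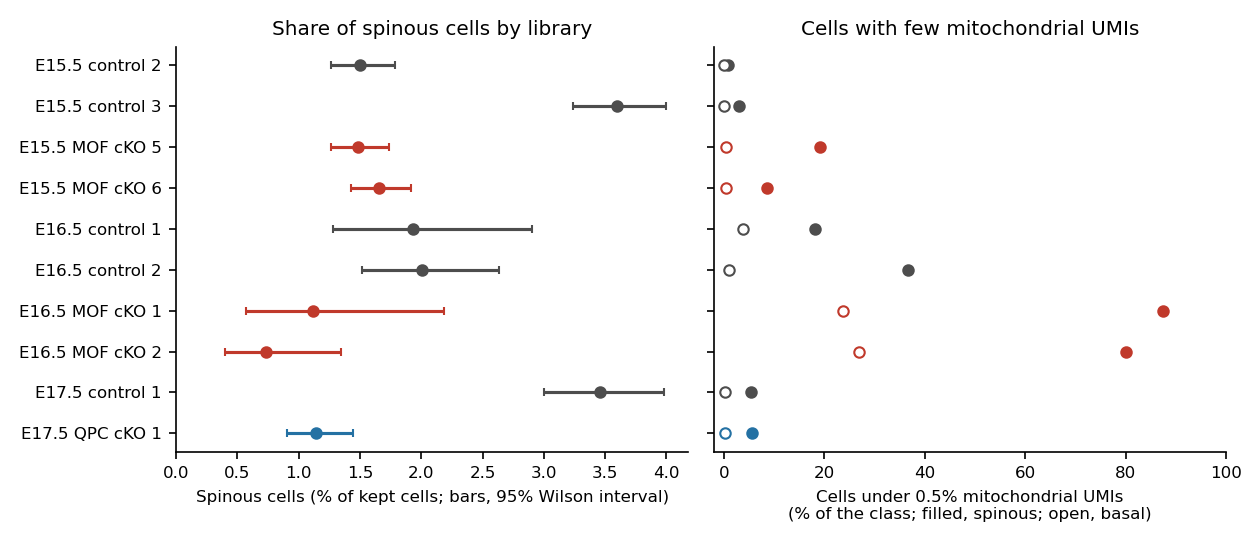
Left, spinous cells as a percent of all kept cells in each of the 10 libraries, with 95% Wilson intervals as bars. Right, the percent of spinous (filled) and basal (open) cells with under 0.5% mitochondrial UMIs in the same libraries, where the E16.5 MOF cKO libraries reach 87.5% and 80%.

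The targeted genes check the labels only in part. Kat8, the gene of MOF, is a low transcript in these cells: its level was 11.8 and 13.9 scaled CPM in control and 10.9 and 8.53 in MOF cKO libraries at E15.5, where scaled CPM are CPM after TMM scaling of library size. These came from 33, 109, 31, 36 UMIs, and both MOF cKO libraries lay below both controls by less than the test could call, with a log2 fold change of -0.43 ± 0.31 (SE, adjusted p = 0.763). Whether 3' reads of Kat8 fall in the deleted part of the gene is not given in the sources used here. At E16.5 it was 22.6 and 12.6 scaled CPM in control and 14.5 and 0 in MOF cKO libraries, from 10, 9, 2, 0 UMIs in that order, so that stage did not have the depth to show its loss. Uqcrq was plain to see at E17.5, with 144 CPM in control and 27.5 CPM in QPC cKO in spinous cells and 121 and 29.8 CPM in basal cells. It had at least 1 UMI in 167 of 185 control and 24 of 70 QPC cKO spinous cells, and in 73.1% and 84.6% of fibroblasts, which lack the Cre. The ratio of Uqcrq in QPC cKO to control spinous cells was 0.191 (95% counting interval 0.143 to 0.251).

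At E15.5, MOF cKO replicate 5 differed from the controls in many genes and replicate 6 in few, and no gene passed the test over both. With 2 libraries in each group, 0 of 10092 genes tested (0%) were called by the edgeR quasi-likelihood test at an adjusted p under 0.05. At an unadjusted p under 0.05 there were 617, and DESeq2 called 26. Without replicate 6, that is replicate 5 against both controls with its spread taken from the controls, 1668 of 10452 genes were called, 977 higher (9.35%) and 691 lower (6.61%). Without replicate 5 there were 9 (0.0841%). Values in replicate 5 are thus set beside those in replicate 6, and a call that rests on replicate 5 alone is named as such.

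Stress keratins showed the split most clearly. Krt6a, a keratin of wounded epidermis, stood at 7.17 and 2.68 scaled CPM in control and 1211 and 6.39 in MOF cKO libraries 5 and 6 (log2 fold change 7.13 ± 2.20 (SE), adjusted p = 0.742). Only replicate 5 was far above the controls, and its Krt6a came from 38 of 151 cells against 7 of 126, 7 of 328 and 5 of 176 in the other libraries. Fibroblasts of the same libraries, which should lack it, had a Krt6a UMI in 0.0659%, 0.0396%, 1.25% and 0.106% of cells, at median depths of 11320.5 UMIs per fibroblast and 21955 per spinous cell in replicate 5. Krt16, its partner keratin, stood at 74.9 and 48.3 scaled CPM in control and 2084 and 103 in MOF cKO libraries. Without replicate 6 both were called (log2 fold change 8.22, adjusted p = 1.07e-04 for Krt6a and 5.12 with adjusted p = 2.04e-04 for Krt16).

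Rises are given for the 10 genes of smallest unadjusted p among those with both cKO libraries above both controls and at least 50 CPM in 1 group. In these, genes of the envelope and of protease inhibition stood beside markers of stress and of other cells. Sprr2a3, a small proline-rich envelope precursor, had the smallest p of these and stood at 7.89 and 5.37 scaled CPM in control and 59 and 55.4 in MOF cKO libraries (log2 fold change 3.16 ± 0.27 (SE), adjusted p = 0.159). Both cKO libraries were above both controls and close to each other. Sprr2 genes are near copies of each other, and how reads were shared among them is uncertain. Serpinb3a, a serpin of differentiating and inflamed epidermis, stood at 0.717 and 3.32 scaled CPM in control and 243 and 25.1 in MOF cKO libraries. Sprr1b stood at 11.1 and 6.52 scaled CPM in control and 708 and 27.9 in MOF cKO libraries, and Ifi202b, an interferon-inducible gene, at 5.38 and 19 scaled CPM in control and 373 and 62.1 in MOF cKO libraries. In all 3, replicate 5 was at least several times above replicate 6, which was itself above both controls. Ccng1, a p53 target, was 14.3 and 20.7 scaled CPM in control and 178 and 44.1 in MOF cKO libraries, and Ftl1, the ferritin light chain, 336 and 294 scaled CPM in control and 932 and 544 in MOF cKO libraries. Lyz2, a myeloid lysozyme, was 0.359 and 0.383 scaled CPM in control and 95.4 and 9.24 in MOF cKO libraries, but 264 of its 270 UMIs in replicate 5 and 36 of 39 in replicate 6 lay in 1 cell each. The summed level of 10 immune markers in spinous cells moved the same way, 4.56e-04, 0.00126, 0.0122, 0.00654% of UMIs in the order control 2, control 3, MOF cKO 5 and MOF cKO 6, and its part in these results was not tested.

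The 10 falls were chosen in the same way, among genes with both cKO libraries below both controls, and were led by transcription factors. Id3, an inhibitor of differentiation factor, went from 188 and 237 scaled CPM in the controls to 90.1 and 81.5 in MOF cKO (log2 fold change -1.31 ± 0.19 (SE), unadjusted p = 3.78e-04 by the edgeR test across all genes, adjusted p = 0.742). Id1 was 191 and 200.1 scaled CPM in control and 96.8 and 69.6 in MOF cKO libraries, and Ovol1, a repressor that drives exit from the basal state, 99 and 120.0 scaled CPM in control and 39.9 and 48.1 in MOF cKO libraries. Klf9, a Krüppel-like factor, was 61.3 and 39.2 scaled CPM in control and 12 and 15.2 in MOF cKO libraries, and Pou3f1, a POU factor of differentiating epidermis, 136 and 169 scaled CPM in control and 60 and 80.8 in MOF cKO libraries. Atf3, a stress-induced AP-1 family factor, was 993 and 965 scaled CPM in control and 198 and 360.5 in MOF cKO libraries, and Nr4a1, an immediate early nuclear receptor, 114 and 105 scaled CPM in control and 9.89 and 34.1 in MOF cKO libraries. Both cKO libraries were below both controls in each of these 7 factors, as in 21.7% of all genes. This was a condition of their choice, beside a small p and at least 50 CPM in 1 group, so nothing is read from it. Penk, the precursor of enkephalin peptides, was also low in both, with 77.4 and 69.4 scaled CPM in control and 33.6 and 39.3 in MOF cKO libraries. Without replicate 6, Atf3 was called with a log2 fold change of -2.30 (adjusted p = 6.88e-04).

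**Figure D2:**
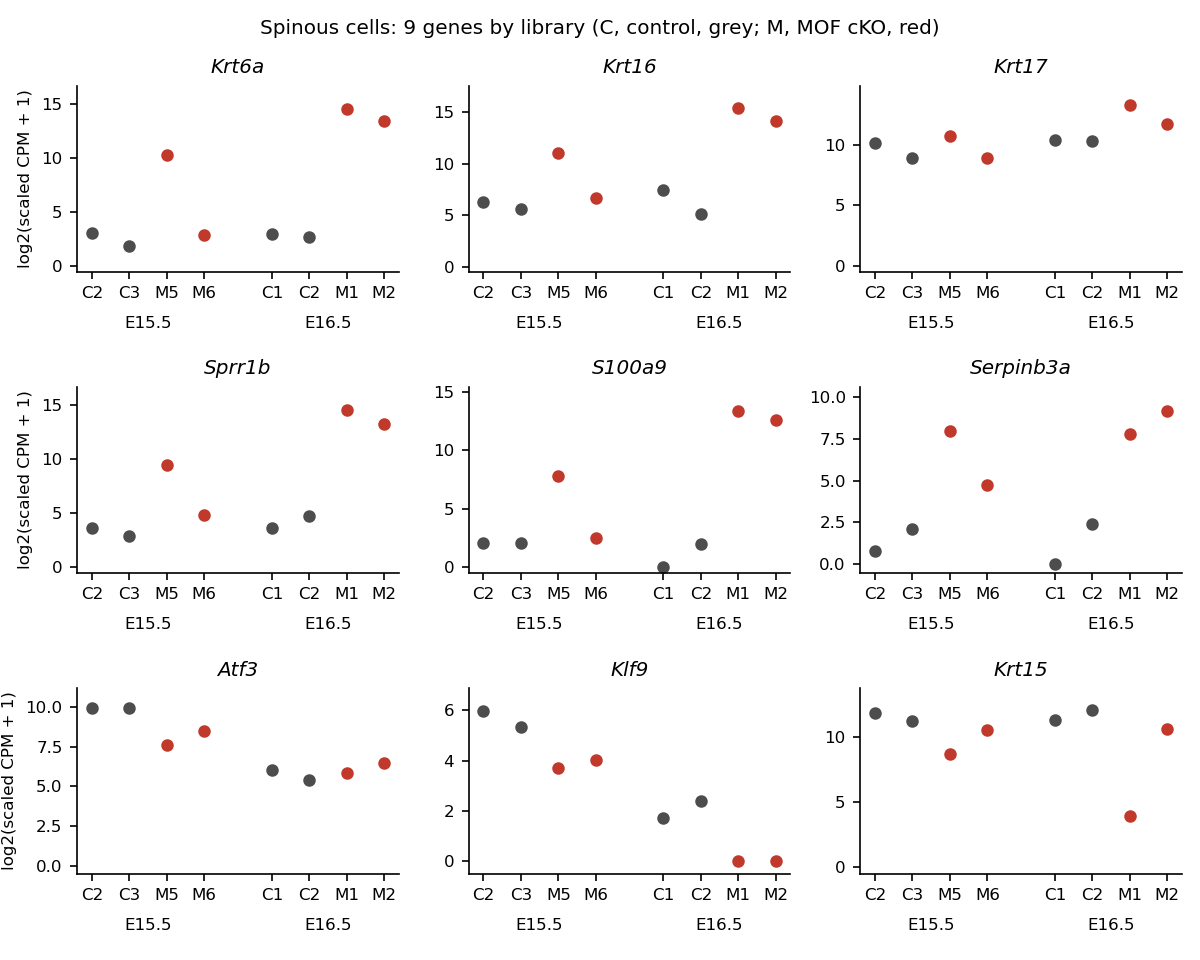
Levels of 9 genes in the spinous cells of the E15.5 and E16.5 libraries, as log2(scaled CPM + 1), 1 point per library, controls beside MOF cKO. Krt6a stands at 7.17 and 2.68 scaled CPM in the E15.5 controls, at 1211 and 6.39 in the MOF cKO libraries of that stage, and at 22804 and 10854 in both MOF cKO libraries at E16.5.

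Read by gene group, fitted changes at E15.5 were small in most groups, with a median log2 fold change over all genes of -0.01. Of 21 AP-1 and immediate early genes, 16 were below both controls in both cKO libraries, against 21.7% of all genes, with a median of -0.52. Fos stood at 2608 and 2497 scaled CPM in control and 1462 and 2095 in MOF cKO libraries, and Jun at 2574 and 2759 scaled CPM in control and 1826 and 2129.9 in MOF cKO libraries. The summed share of this group was 1.23% and 1.22% of UMIs in control and 0.627% and 0.944% in MOF cKO libraries. Of 53 primary cilium genes 41 passed the filter on low counts, 23 of them below both controls, with a median of -0.58. Subunits of respiratory complex I, the first enzyme of the electron transport chain, had a median of -0.25 with 23 of 37 below both controls, and mitochondrial ribosomal proteins -0.19 with 43 of 75. Complexes II and III (-0.08, 2 of 14 below both controls) and cytochrome oxidase with ATP synthase (-0.02, 6 of 27) were closer to the median of all genes. Mitochondrially encoded genes had a median of -0.05 with 2 of 13 below both controls. For these last 3 groups the counts were near or under 21.7%.

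Cytosolic ribosomal protein genes and p53 targets leaned the other way. All 77 ribosomal genes tested had a fitted change above 0 (median 0.38), but only 16 were above both controls in both cKO libraries, against 20.4% of all genes. Their summed share was 25.6% and 26.8% of UMIs in control and 33.7% and 26.6% in MOF cKO libraries, so replicate 5 alone was high. The middle 50% of the cells of replicate 5 lay between 31.8% and 38.3%, above the range of 23.6% to 29.3% in replicate 6. Of 19 p53 targets 15 were tested, with a median of 0.98 and 8 above both controls, beside the same 20.4%. Cdkn1a, the p21 cell cycle inhibitor, stood at 245 and 283 scaled CPM in control and 671 and 187 in MOF cKO libraries, and Phlda3 at 51.6 and 39.3 scaled CPM in control and 143 and 36.9 in MOF cKO libraries. In both, replicate 6 was below the controls while replicate 5 was above them. Glycolytic genes had a median of 0.40 with 9 of 17 above both controls, barrier lipid genes 0.59 with 8 of 21, and the 10 granular and envelope genes that passed the filter 1.09 with 4 of 10. A gene that is high in 1 group can pass this filter through that group alone, so medians over such lists lean towards the high group. Desmosome genes (0.08), junction genes (0.15), Notch pathway genes (0.16) and differentiation transcription factors (-0.03) stayed near 0 as medians, with no member called.

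The comparison of replicate 5 alone with both controls put calls on many of these groups, and its background was 9.35% of genes higher and 6.61% lower. Calls were 69 higher and 0 lower of 77 for ribosomal genes, 13 higher and 0 lower of 16 for p53 targets, 13 higher and 0 lower of 16 for granular and envelope genes and 7 higher and 0 lower of 22 for barrier lipid genes. They were 2 higher and 11 lower of 21 for AP-1 and immediate early genes, 0 higher and 12 lower of 24 for S phase genes, 0 higher and 10 lower of 42 for cilium genes, 3 higher and 18 lower of 75 for mitochondrial ribosomal proteins and 2 higher and 5 lower of 37 for complex I. Krt15, a keratin of basal cells, was called lower there (log2 fold change -2.84, adjusted p = 0.0035), from 3608 and 2345 scaled CPM in control and 415 and 1426 in MOF cKO libraries. Genes could pass the filter through replicate 5 alone, 16 granular and envelope genes against 10 with both cKO libraries, so the counts of higher calls for these lists are a description and are not read against the background. A lone library gives no measure of spread among cKO embryos, and these calls assume that it varied like the controls. Replicate 5 held 29 of the 44 cKO cells with almost no mitochondrial RNA at this stage. Its Krt6a was 675 CPM in those cells and 1039 CPM in its other spinous cells, and with these cells left out of all libraries 0 of 10044 genes (0%) were called by edgeR.

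Spinous and basal cells of the same E15.5 libraries differed in their response to MOF loss in 1 of 12848 genes (0.00778%), which was Hbb-y, an embryonic globin of red blood cells. Its difference rested on 494 of 509 UMIs of MOF cKO replicate 6 in 1 spinous cell. For Krt6a the difference of the log2 fold changes, spinous minus basal, was 3.13 ± 1.08 (SE, adjusted p = 0.896), with basal levels of 1.2, 0.93, 13.6, 1.41 CPM in the order control 2, control 3, MOF cKO 5 and MOF cKO 6. Basal cells were low in Krt6a in each of the 4 libraries, and their highest value was in the same library as that of the spinous cells. For Atf3 the difference was -0.10 ± 0.13 and for Klf9 -0.81 ± 0.27. Without MOF cKO replicate 6, 865 of 13412 genes differed between the cell classes, and without replicate 5 there were 22, so the count rests on these libraries. G2 and M phase genes had a median difference of -0.35 with all 26 below 0, S phase genes -0.26 with 23 of 24 below 0, beside -0.02 over all genes, and none was called over all 4 libraries. The cKO libraries were not alike in this. The median spinous cell held 0.0136% of its UMIs in G2 and M phase genes in MOF cKO replicate 5 and 0.178% in replicate 6, with 0.135% and 0.0276% in controls 2 and 3. Replicate 5 alone was below both controls.

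At E16.5 stress keratins, envelope precursors and alarmins were high in both MOF cKO libraries. Of 3182 genes tested, 208 were called (6.54%), 179 higher (5.63%) and 29 lower (0.911%), at an adjusted p under 0.05. Without control replicate 1 there were 135 calls and without MOF cKO replicate 2 there were 1040, and scaling by library size alone, which moved the median over all genes from -0.05 to -0.61, gave 145 higher and 219 lower. Under that scaling the calls were again 3 of 4 stress keratins, 10 of 12 envelope genes and 5 of 7 alarmins higher, beside 145 of all 3182 genes. Lower calls went from 29 to 219 over all genes and from 7 to 14 among G2 and M phase genes. Among complex I genes they went from 1 to 6 and among mitochondrially encoded genes from 0 to 5. Some members could pass the filter through 1 group alone, so these counts are a description and are not read against those of all genes. The reads behind the MOF cKO values came from 8 and 10 cells, and the levels are therefore those of a handful of cells of 2 libraries. Most of those cells, 7 and 8, were the cells with almost no mitochondrial RNA. Without the largest cell of each library 361 genes were called, 184 of them among the 208. In MOF cKO replicate 1 that largest cell was the only 1 not among the cells with almost no mitochondrial RNA, so leaving it out raised their share.

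Of the stress keratins, Krt6a and Krt6b were among the 10 largest called rises. Krt6a stood at 6.78 and 5.6 scaled CPM in control and 22804 and 10854 in MOF cKO libraries (log2 fold change 11.35 ± 0.91 (SE), adjusted p = 5.65e-04). Krt6b, its near copy, had no UMI in either control and 30521 and 17011 scaled CPM in MOF cKO, from 4224 and 2271 UMIs, at least 6291-fold higher when the controls are set at 3 counts together. How reads were shared between these 2 genes is uncertain, since their coding sequences are almost alike. Krt16 stood at 172 and 33.6 scaled CPM in control and 44459.7 and 17880.0 in MOF cKO libraries (log2 fold change 8.27 ± 1.10 (SE), adjusted p = 0.00368), and Krt17 at 1365 and 1293 scaled CPM in control and 10181 and 3498 in MOF cKO libraries (log2 fold change 2.36 ± 0.61 (SE), adjusted p = 0.053). The first 3 rose and Krt17 did not pass the test, although its groups did not overlap. Krt6a was found in 8 of 8 and 9 of 10 MOF cKO spinous cells and in 2 of 22 and 3 of 49 control cells. Fibroblasts of these libraries had a Krt6a UMI in 39% and 17.6% of cells in MOF cKO against 0.681% and 2.47% in the controls, so Krt6a UMIs in cells that should lack it were more frequent in MOF cKO. Their source was not tested. The 4 keratins together took 0.204% and 0.15% of UMIs in control and 7.92% and 4.52% in MOF cKO libraries.

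Granular and cornified envelope genes rose in the same libraries. Of 47 listed genes 12 passed the filter and 10 were called higher, where 5.63% of all genes were: Ivl, Cnfn, Csta1, Tgm1, Tgm3, Sprr1a, Sprr1b, Sprr2a1, Sprr2d and Sprr2h. Several of the 12, such as Sprr1a, could pass the filter only through the cKO libraries where they were high, so the count is a description and is not read against that share. The Lor limit of the rule removed 7 and 14 cells that met its other limits from the controls, and 1 and 0 from MOF cKO. The part of this uneven removal in the levels of envelope genes was not tested. Sprr1a and Sprr1b, small proline-rich proteins that are crosslinked into the envelope, both lie in the epidermal differentiation complex. Sprr1a had 0 and 3 UMIs in the controls and stood at 14986 and 6165 scaled CPM in MOF cKO (ratio of pooled CPM 2806, 95% counting interval 959 to 13615), and Sprr1b stood at 11.3 and 25.2 scaled CPM in control and 23823 and 9311 in MOF cKO libraries (log2 fold change 9.75 ± 0.93 (SE), adjusted p = 8.28e-04). Each control library was near the limit of counting for Sprr1a, and for both genes both MOF cKO libraries were far above both controls. Because they rose together, the 250 bases before their start sites (RefSeq, GRCm38.p6) are shown, read 5′ to 3′ on the strand of the gene, with capitals for TGANTCA, the letters of the AP-1 site on either strand, and for TATAAA, the TATA box. Sprr1a lies on the minus strand with its window at chr3:92485882-92486131, and Sprr1b on the minus strand with its window at chr3:92438780-92439029.
Sprr1a: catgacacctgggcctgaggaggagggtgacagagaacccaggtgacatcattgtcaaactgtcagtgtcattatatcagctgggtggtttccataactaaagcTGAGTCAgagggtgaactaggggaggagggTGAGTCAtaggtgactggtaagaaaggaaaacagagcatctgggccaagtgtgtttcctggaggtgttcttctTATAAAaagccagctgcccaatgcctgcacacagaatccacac
Sprr1b: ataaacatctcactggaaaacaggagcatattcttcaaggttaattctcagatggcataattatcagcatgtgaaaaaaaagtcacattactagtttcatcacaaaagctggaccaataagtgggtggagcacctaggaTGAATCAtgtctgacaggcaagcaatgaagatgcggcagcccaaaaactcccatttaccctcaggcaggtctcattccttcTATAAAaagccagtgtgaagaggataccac

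Sprr1a held the AP-1 letters at 146 to 140 and at 116 to 110 bases before the start, and Sprr1b at 111 to 105. The TATA letters stood 43 to 38 bases before the start in Sprr1a and 30 to 25 in Sprr1b. Of 32851 promoters of the same length, 2217 (6.75%) held the AP-1 letters and 4063 (12.4%) the TATA letters on either strand. S100a8, S100a9 and Klk7, which were also looked up and are described further on, did not hold the AP-1 letters in the same window, and of these S100a8 alone held the TATA letters, 30 to 25 bases before the start. Of 10 rising genes looked up only 5 had an entry among the promoters. Krt6a, Krt6b, Krt16, Nccrp1 and 2310046K23Rik had none. These matches are letters in a window, and no binding was measured. Of the AP-1 factors themselves, Fos stood at 280.2 and 417 scaled CPM in control and 882 and 861 in MOF cKO libraries (adjusted p = 0.0887) and Junb at 409 and 248 scaled CPM in control and 737 and 809 in MOF cKO libraries (adjusted p = 0.114). Of 13 AP-1 and immediate early genes tested, 3 were called higher (Ier3, Ier5 and Zfp36), with a median of 0.84 (0.29 with library size alone). Members could pass the filter through the cKO libraries alone, so the count is not read against the 5.63% of all genes. In fibroblasts of these libraries the summed share of the group was 0.859% and 0.653% of UMIs in control and 1.25% and 1.22% in MOF cKO, and in spinous cells it was 0.325% and 0.218% of UMIs in control and 0.304% and 0.421% in MOF cKO, where the groups overlapped. The fitted median of the group in spinous cells was above 0 here, while at E15.5 16 of 21 genes were below both controls. The overlapping shares show no direction at E16.5. Between the stages 0 of 9369 genes differed in their MOF effect by the edgeR test, so that no gene of the group was shown to differ.

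Other envelope and cornification genes followed. Csta1, a cystatin A gene that inhibits cysteine proteases, stood at 49.7 and 179 scaled CPM in control and 6633 and 1573 in MOF cKO libraries (log2 fold change 5.14 ± 0.89 (SE), adjusted p = 0.0115). Cnfn, cornifelin of the envelope, stood at 2.26 and 32.2 scaled CPM in control and 2847 and 876 in MOF cKO libraries (log2 fold change 6.61, adjusted p = 0.00606). Tgm1, the transglutaminase that crosslinks the envelope, stood at 18.1 and 32.2 scaled CPM in control and 390.2 and 187 in MOF cKO libraries (log2 fold change 3.47, adjusted p = 0.00822). In all 3 the lowest cKO library was above the highest control. Klk7, a protease that cuts desmosomes during shedding, had 0 and 1 UMI in the controls and 1481 and 239.7 scaled CPM in MOF cKO. Nccrp1 and 2310046K23Rik had no control UMI at all and were at least 413-fold and 2036-fold higher by the same limit of 3 counts. The list as a whole took 0.113% and 0.109% of UMIs in control and 4.06% and 1.84% in MOF cKO libraries. Lor, the main granular protein, was under its threshold by the rule in every cell, with medians of at most 4 UMIs per cell. As given above, that threshold removed more cells from the controls than from MOF cKO. Krt10, which the rule used, stood lower in the MOF cKO cells, at 16898 and 19213 scaled CPM in control and 5390.4 and 10809 in MOF cKO libraries, and the 10 spinous genes at 4.5% and 5.03% of UMIs in control and 2.78% and 2.65% in MOF cKO libraries. Basal keratin 14 stood at 6219.6 and 7916 scaled CPM in control and 42314 and 22914 in MOF cKO libraries (adjusted p = 0.0736) and keratin 5 at 4285 and 3911 scaled CPM in control and 3476 and 2255 in MOF cKO libraries (adjusted p = 0.5), so neither passed the test.

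Alarmins and cytokines rose with them, 5 of 7 tested of 31 listed, where 5.63% of all genes rose. S100a8 and S100a9 could pass the filter only through the cKO libraries, and the count is not read against that share. S100a8 and S100a9, the paired calcium-binding antimicrobial proteins, had 1 and 2 UMIs in the controls together and stood at 4227 and 1386 and at 10311 and 6052 scaled CPM in MOF cKO. The ratio of pooled CPM was 3247 for S100a9, with a 95% counting interval of 898 to 26831. Defb1, a beta-defensin, stood at 38.4 and 9.8 scaled CPM in control and 910.4 and 345 in MOF cKO libraries (log2 fold change 4.76, adjusted p = 0.00778), and Nfkbia, the NF-kB inhibitor, at 72.3 and 91 scaled CPM in control and 426 and 285 in MOF cKO libraries (log2 fold change 2.11, adjusted p = 0.0226). The last called member was Il1f9, an interleukin 1 family cytokine. Neutrophils also carry S100a8 and S100a9 RNA. The 10 immune markers summed to 0.00239, 0.00283, 0.0106, 0.00894% of UMIs in these libraries in the order of controls and MOF cKO, and none of the 10 passed the filter on low counts. Their part in the result was not tested.

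Lipid, glycolytic and stress genes gave fewer calls. Of 11 barrier lipid genes tested 5 were called higher. Members that are scarce in the controls, such as Alox12b, could pass the filter only through the cKO libraries, and neither this count nor those that follow are read against the 5.63% of all genes. Among them were Elovl4, which makes ultra-long fatty acids (119.8 and 167 scaled CPM in control and 989.9 and 359.5 in MOF cKO libraries, log2 fold change 2.23, adjusted p = 0.0444), and Alox12b, a lipoxygenase of the barrier (4.52 and 14 scaled CPM in control and 246 and 59.9 in MOF cKO libraries, log2 fold change 3.88). The other 3 were Dgat2, Pnpla1 and Plbd1. Of 13 glycolytic genes Eno1 and Pfkp were called higher, and all 13 were fitted above 0 (median 1.19), 10 of them with library size alone. Eno1, the enolase, stood at 472 and 498 scaled CPM in control and 2182 and 1296 in MOF cKO libraries. Of 8 p53 targets Phlda3 and Plk2 were called, Phlda3 at 92.7 and 92.4 scaled CPM in control and 542 and 375 in MOF cKO libraries (log2 fold change 2.30, adjusted p = 0.0142). Cdkn1a had a log2 fold change of 0.82 that did not pass (adjusted p = 0.289). Of 13 genes of the integrated stress response Nupr1 rose (11.3 and 64.4 scaled CPM in control and 1199 and 367 in MOF cKO libraries) and Phgdh, which starts serine synthesis, fell (565 and 567 scaled CPM in control and 7.23 and 112 in MOF cKO libraries, log2 fold change -3.25, adjusted p = 0.0396). Hopx was the 1 called gene among 19 differentiation transcription factors, at 15.8 and 9.8 scaled CPM in control and 469.7 and 44.9 in MOF cKO libraries. Klf4 had a log2 fold change of 1.27 (adjusted p = 0.0947), Grhl3 1.27 and Ovol1 0.54, none of which passed and of which Klf4 and Ovol1 turned negative without mitochondria-poor cells, Ovol1 also with library size alone.

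Falls in the summed counts at E16.5 included genes of dividing cells. Of 15 G2 and M phase genes tested 7 were called lower, beside 0.911% of all genes: Top2a, Ccnb2, Birc5, Cenpa, Cenpf, Cdc20 and Ube2c. All 15 were below both controls in both cKO libraries (32.5% of all genes were), with a median of -3.03. A gene could pass the filter through the controls alone, so these counts are a description and are not read against the shares of all genes. Birc5, survivin of the dividing cell, stood at 199 and 123 scaled CPM in control and 7.23 and 22.5 in MOF cKO libraries (log2 fold change -3.41 ± 0.66 (SE), adjusted p = 0.0182), and Ube2c, a ubiquitin enzyme of mitotic exit, at 334 and 127 scaled CPM in control and 21.7 and 37.5 in MOF cKO libraries. None of 10 S phase genes was called (median -0.76). G2 and M phase genes were also lower in other cells of the MOF cKO libraries. The summed G2 and M phase share was 0.316% and 0.142% of UMIs in control and 0.00796% and 0.0268% in MOF cKO in spinous cells and 0.26% and 0.271% of UMIs in control and 0.0361% and 0.127% in MOF cKO in basal cells. In fibroblasts, which lack the Cre, it was 0.267% and 0.261% of UMIs in control and 0.105% and 0.106% in MOF cKO. The S phase share was 0.0988% and 0.0939% of UMIs in control and 0.0127% and 0.0935% in MOF cKO in spinous cells, where replicate 2 was level with a control, and 0.193% and 0.179% of UMIs in control and 0.078% and 0.093% in MOF cKO in fibroblasts. Hoxa7, a homeobox gene of trunk position, had 1 UMI in MOF cKO and stood at 124 and 102 scaled CPM in the controls (ratio 0.0227, 95% counting interval 5.70e-04 to 0.129). Of nuclear genes for the electron transport chain, Sdhb of complex II fell (305 and 291 scaled CPM in control and 43.4 and 105 in MOF cKO libraries, adjusted p = 0.0492). Medians were -0.64 over 37 complex I genes, -0.77 over 62 mitochondrial ribosomal genes, with 37 below both controls, and -0.89 over 12 mitochondrially encoded genes, with 10 below both controls. None of the last 2 groups was called. The share of mitochondrial RNA in these libraries is that of the cells described above, with a median of 0.0685% and 0.0431% per cell in MOF cKO and 3.99% and 2.53% in the controls.

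Among cells with almost no mitochondrial RNA alone, MOF cKO and control spinous cells still differed. With 4 and 18 control cells and 7 and 8 MOF cKO cells, a comparison added after the data were seen, 185 of 1216 genes were called, 127 higher (10.4%) and 58 lower (4.77%). Of the 208 genes called over all spinous cells 142 could be tested, all 142 with the same direction, and 111 were called again, which is 53.4% of the 208 and 60% of the 185. The 15 MOF cKO cells are among the 18 of the first comparison, so direction and repeated calls are in part fixed by shared cells. Krt6a had 0 and 0 CPM in these control cells and 19766 and 17737 CPM in these MOF cKO cells. Sprr1b had 0 and 136 CPM in controls and 24682 and 15214 in MOF cKO, and S100a9 0 and 0 against 9708 and 9898. The mitochondria-poor cells of the controls held no UMI of the stress keratin or the alarmin, and held Krt10 at 33297 and 43969 CPM against 5379.6 and 10045 in MOF cKO. All 4 stress keratins, 9 of 11 granular and envelope genes and all 4 alarmins tested were called higher in this comparison, as were 127 of 1216 genes, but genes at 0 in the controls passed the filter only through MOF cKO and these counts are not read against each other. Of 22 mitochondrial ribosomal genes 3 were called lower (median -0.88).

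With those cells left out, only 1 and 2 MOF cKO cells remained at E16.5, against 18 and 31 control cells, and 1 of 2588 genes (0.0386%) was called, Ier3, an immediate early gene. Of the 208 genes 95 could be tested and all 95 kept their direction. All control and MOF cKO cells used here were also in the first comparison, so the direction is in part fixed by shared cells. The 1 remaining cell of MOF cKO replicate 1 was its largest, with 39.5% of the spinous UMIs of that library. In the 1 remaining cell of MOF cKO replicate 1 Krt6a stood at 12095 CPM and Sprr1b at 6451 CPM, and in the 2 of replicate 2 both stood at 15.7 CPM, with 9.4 and 7.61 CPM of Krt6a and 15.7 and 5.71 CPM of Sprr1b in the controls. The 2 libraries disagreed here, each on a value from at most 2 cells. Krt15 was 3358 and 5478 CPM in the other control cells and 2342 and 1560.0 CPM in their mitochondria-poor cells, and 17.52 and 245 CPM in the mitochondria-poor MOF cKO cells. What set these cells apart was not tested, and over all spinous cells the effect of MOF loss cannot be told apart from that of their share. Without the upper limit of 6000 genes, which added spinous cells to 3 of the 4 libraries, 66 genes were called, 64 of them among the 208.

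**Figure D3:**
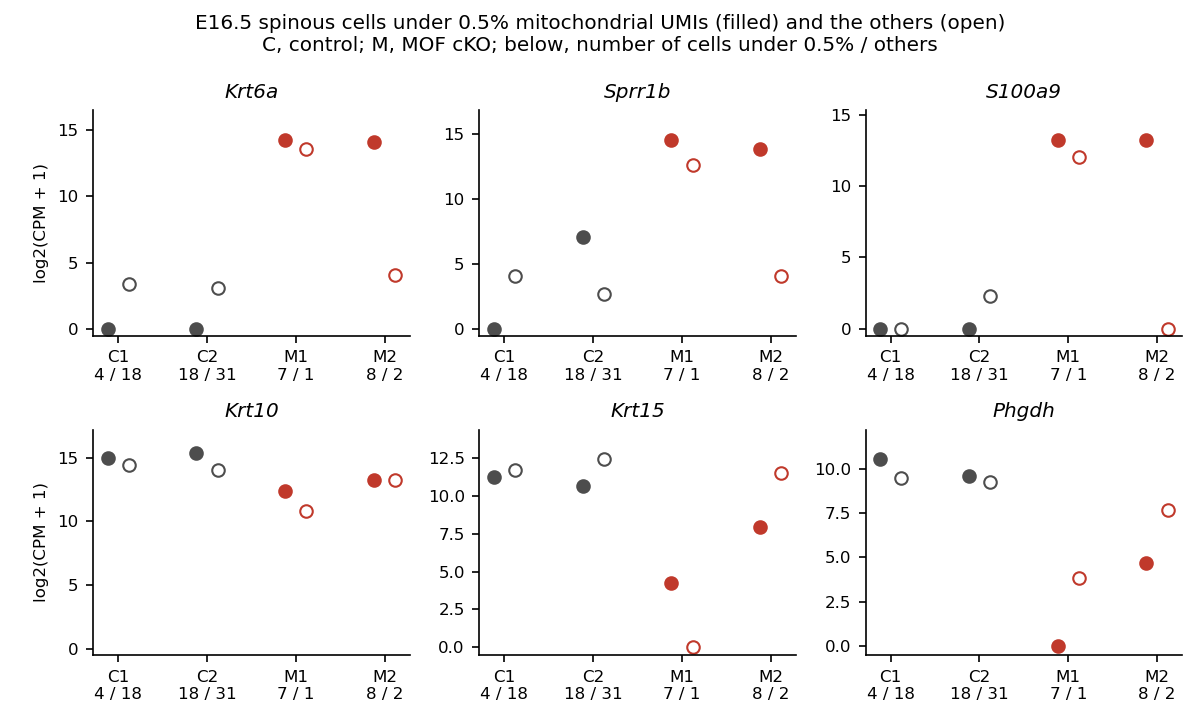
CPM of 6 genes at E16.5 in spinous cells with under 0.5% mitochondrial UMIs and in the other spinous cells of the same 4 libraries, 1 point per library. Among the mitochondria-poor cells, Krt6a is at 0 CPM in both controls and at 19766 and 17737 CPM in MOF cKO, while Krt10 is higher in the controls.

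Basal cells of the E16.5 libraries, 845 of whose 8065 tested genes were called (10.5%), showed several of the same genes. Krt6a had a log2 fold change of 11.60 in basal cells (adjusted p = 6.54e-05) beside 11.35 in spinous cells, Sprr1b 11.30 beside 9.75, and S100a9 7.69 beside 11.97. These sums share libraries, and the difference between the 2 cell classes was not tested at this stage, where MOF cKO held 21 and 26 basal cells.

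Over both stages together, with stage as a term and 8 libraries, 53 of 8787 genes were called (0.603%), 52 higher (0.592%) and 1 lower (0.0114%). The calls rested on single libraries: without E16.5 control replicate 2 there were 0, without E15.5 MOF cKO replicate 6 there were 642, without E15.5 MOF cKO replicate 5 there were 15, without E15.5 control replicate 2 there were 32, and without E16.5 MOF cKO replicates 1 and 2 in turn there were 28 and 35. Without the cells under 0.5% mitochondrial UMIs 9 genes of 8637 (0.104%) were called, named here after their values were seen: Sprr2a3, Serpinb3a, Ifi202b, Lyz2, Krt6b, Pdzk1ip1, Krt6a, B930036N10Rik and Sprr1b. Of the lists, 3 of 4 stress keratins, 7 of 14 granular and envelope genes tested and 4 of 16 alarmins and cytokines were called higher, counts that are not read against 0.592%, since members near 0 in the controls, such as Krt6b at E16.5, could pass the filter only through cKO libraries. Krt6a had a log2 fold change of 8.81 ± 1.41 (adjusted p = 0.0119), Krt16 6.12 (adjusted p = 0.0253), Sprr1b 7.39 (adjusted p = 0.0119) and Serpinb3a 6.12 (adjusted p = 0.0119). Tgm1, the crosslinking enzyme, rose by 2.52 (adjusted p = 0.0164). The immune markers Lyz2 and Fcer1g were among the calls, beside the level of immune RNA given above. The 1 fall was Klf9, whose E16.5 levels were 2.26 and 4.2 scaled CPM in control and 0 and 0 in MOF cKO libraries and which had a log2 fold change of -1.90 ± 0.36 (adjusted p = 0.0253). Those E16.5 levels came from 1 and 3 UMIs in the controls, too few to show a fall at that stage.

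The MOF effect itself was not shown to differ between the stages for any gene, with 0 of 9369 called (0%), 1221 at an unadjusted p under 0.05, and 2 called with library size alone or with the cells chosen by CPM. For Krt6a the difference, E16.5 minus E15.5, was 4.28 ± 2.33 (adjusted p = 0.441), for Sprr1b 4.24 ± 1.58 and for Atf3 2.22 ± 0.60. Without E15.5 MOF cKO replicate 5 there were 58 calls. By group, genes of the cytosolic ribosome stood above 0 in 77 of 77 genes tested at E15.5 and in 72 of 78 at E16.5 (32 of 78 with library size alone), and complex I genes below 0 in 29 of 37 and 32 of 37. These counts are for separate embryos, with no control in common, and no gene of either group was called at E15.5.

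**Figure D4:**
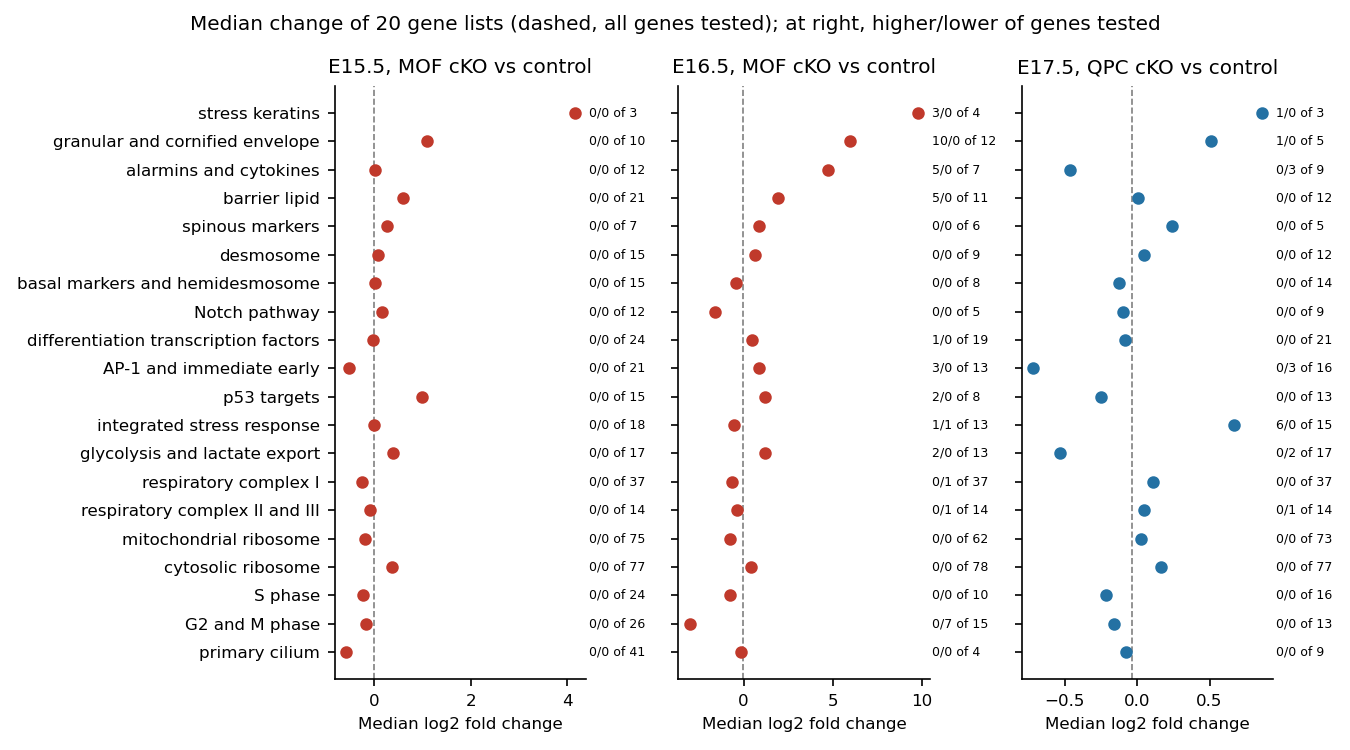
Median log2 fold change of 20 gene groups in spinous cells for MOF cKO against control at E15.5 and E16.5 and for QPC cKO against control at E17.5, with the numbers of genes called (E15.5 and E16.5) or past 2-fold (E17.5) beside each point. The medians over all genes are -0.01, -0.05 and -0.04, and the stress keratin, granular and alarmin groups are furthest to the right at E16.5.

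At E17.5, spinous cells of the QPC cKO library had more RNA of integrated stress response genes and less of immediate early and glycolytic genes than those of the control library. With 1 library each there was no test. Values are CPM, log2 ratios carry a pseudocount of 1 CPM, and intervals cover counting error only. Among the 5834 genes that reached 100 UMIs in 1 or both libraries, 20 were at least 2-fold higher (0.343%) and 67 at least 2-fold lower (1.15%) in QPC cKO. The median log2 ratio was -0.04. The control held more UMIs, so a gene could reach 100 UMIs at a lower CPM there, which favours falls over rises. With a pseudocount of 10 CPM, 17 were higher and 26 lower. A gene could also pass the limit through 1 library alone. Counts within gene lists are therefore a description and are not read against these shares.

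Of 15 stress response genes with enough UMIs 6 were past 2-fold higher and 14 were above 0 (median 0.67). Over all genes 0.343% were past 2-fold higher and the median was -0.04. Members could pass the limit on UMIs through QPC cKO alone, so the count is not read against that share. Mthfd2, a mitochondrial enzyme of one-carbon metabolism, stood at 14.5 CPM in control and 120.3 CPM in QPC cKO (ratio 8.31, 95% counting interval 6.36 to 11). It had a UMI in 48 of 185 control cells and 45 of 70 QPC cKO cells, at similar median depths of 28167 and 29204 UMIs. Atf5, a transcription factor of the response, stood at 68.9 CPM in control and 281 CPM in QPC cKO (ratio 4.08, 95% counting interval 3.56 to 4.68), and Nupr1, a small stress-induced protein, at 20.8 CPM in control and 104 CPM in QPC cKO (log2 ratio 2.27). Slc3a2, a subunit of amino acid transporters, stood at 105 CPM in control and 238 CPM in QPC cKO, and Asns and Slc7a5 had log2 ratios of 1.65 and 1.25. Cth, which makes cysteine and is not on the list, stood at 11.4 CPM in control and 62.4 CPM in QPC cKO. Atf4 itself stood at 176 CPM in control and 178 CPM in QPC cKO, and Psat1 and Phgdh, both of serine synthesis, at 223 CPM in control and 328 CPM in QPC cKO and at 408 CPM in control and 473 CPM in QPC cKO. These 3 were under 2-fold.

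All 16 AP-1 and immediate early genes were below 0 in QPC cKO, 3 of them past 2-fold, with a median of -0.72. Over all genes 1.15% were past 2-fold lower and the median was -0.04. Fos stood at 1679 CPM in control and 772 CPM in QPC cKO (ratio 0.46, 95% counting interval 0.435 to 0.485) and Junb at 988 CPM in control and 581 CPM in QPC cKO. Nr4a1 and Dusp1, the other 2 past 2-fold, had log2 ratios of -1.73 and -1.22. All 17 glycolytic genes were below 0 as well (median -0.53), with Slc16a3, a lactate exporter, at -1.73 and Pfkfb3, a regulator of glycolytic flux, at -1.04. Ldha, which makes lactate, stood at 1114 CPM in control and 666 CPM in QPC cKO, and Pkm, pyruvate kinase, at 929 CPM in control and 562 CPM in QPC cKO. At E16.5 all 13 glycolytic genes tested were above 0 in MOF cKO (10 with library size alone), in other embryos, another chemistry and another model. Of the respiratory chain only the targeted Uqcrq was past 2-fold: complex I had a median of 0.11 over 37 genes, complexes II and III 0.05 over 14 and mitochondrially encoded genes 0.04 over 12.

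The largest falls also held 3 Hox genes, which were not a list of their own here, and chemokines. Hoxa7 stood at 119 CPM in control and 15.2 CPM in QPC cKO (ratio 0.128, 95% counting interval 0.0859 to 0.183), Hoxb8 at 22 CPM in control and 3.44 CPM in QPC cKO and Hoxc8 at 25.1 CPM in control and 4.91 CPM in QPC cKO. Hox genes mark the level along the trunk. Ccl2, a monocyte chemokine, had 1 UMI in QPC cKO and 145 in the control (ratio 0.0166, 95% counting interval 4.18e-04 to 0.094), and Cxcl2, a neutrophil chemokine, stood at 31.8 CPM in control and 5.4 CPM in QPC cKO. Arrdc4, an arrestin induced by glucose, stood at 22 CPM in control and 2.95 CPM in QPC cKO. Within the alarmin and cytokine list 3 of 9 genes were past 2-fold lower and none higher, a count not read against the 1.15% of all genes. The summed share of the list was 0.0839% of UMIs in control and 0.083% in QPC cKO. In fibroblasts, which lack the Cre, that share was 0.764% in control and 0.193% in QPC cKO.

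Stress keratins and Sprr1b were higher in QPC cKO. Krt6a stood at 3.47 CPM in control and 94.3 CPM in QPC cKO (ratio 27.2, 95% counting interval 16.55 to 47.7), with 38.5% of its QPC cKO UMIs in 1 cell and a UMI in 10 of 70 cells against 7 of 185. Sprr1b stood at 3.67 CPM in control and 58.4 CPM in QPC cKO, Krt16 at 381 CPM in control and 693 CPM in QPC cKO and Krt17 at 2704 CPM in control and 4603 CPM in QPC cKO. The 4 values pointed one way, and the last pair was under 2-fold. Krt6b stood at 0.816 CPM in control and 22.6 CPM in QPC cKO, with 37 of its 46 QPC cKO UMIs in 1 cell. Granular and envelope genes had a median of 0.51 over 5 genes, barrier lipid genes 0.00 over 12 and desmosome genes 0.05 over 12. Mast cell proteases were among the largest rises, Mcpt4, Cpa3 and Cma1, but 134 of 135, 168 of 171 and 249 of 253 of their QPC cKO UMIs lay in 1 cell, and with no upper limit on detected genes Cpa3 and Cma1 were lower in QPC cKO. With that limit removed 185 genes were past 2-fold, 64 higher and 121 lower, and the log2 ratio of Krt6a was 2.47.

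**Figure D5:**
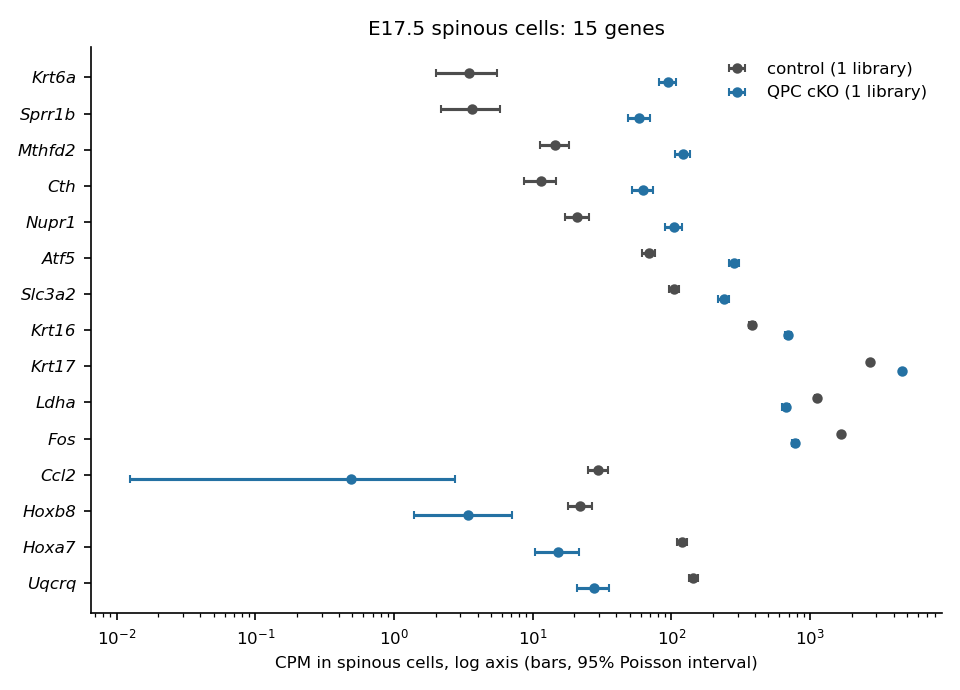
CPM of 15 genes in the spinous cells of the single control library (185 cells) and QPC cKO library (70 cells) of E17.5 on a log axis, with exact Poisson 95% intervals as bars. Mthfd2, Atf5, Nupr1 and Krt6a are higher and Uqcrq, Hoxa7, Fos and Ldha lower in QPC cKO.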

How the data were processed

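Each library is a table of raw UMI counts per gene and cell, as deposited, which the authors made with Cell Ranger 6.1.2 on mm10 (1.3.1 is also listed for E16.5 and E17.5) and did not normalize.
Spinous members and all gene lists were chosen with earlier results of these data known. No doublet caller was run.
UMI counts were summed over the spinous cells of each library. Genes were tested with edgeR 4.0.16 (limma 3.58.1, R 4.3.3) by glmQLFit and glmQLFTest after filterByExpr and TMM, with p-values adjusted over all genes by Benjamini-Hochberg and called under 0.05; the 5 rule genes were not tested. DESeq2 1.42.0 was an alternative. MOF levels are TMM-scaled CPM, and E17.5, mitochondria-poor, basal and summed list levels are plain CPM or shares of UMIs.
At E17.5, genes reaching 100 UMIs in 1 or both libraries have a ratio with exact 95% Poisson intervals and no test. A count of 0 was read as 3 counts over the group. Intervals and such limits cover counting error only.
Named genes are the rule genes, Kat8, Uqcrq, the 4 highest genes of each list in controls and called list members. Per comparison the 10 largest rises and falls were added among called genes with no overlap between groups and at least 50 CPM in 1 group. With no call, the 10 of smallest p each way under the same limits on overlap and CPM were added. Others were named after their values were seen.
Python 3.11.15, numpy 2.4.6, pandas 2.3.3, scipy 1.17.1 and matplotlib 3.10.9 were used. The test was tested on simulated counts.
Alternatives were other normalizations, filters, rules for cells, and leaving out libraries or cells.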

Additional observations from a re-analysis of the deposited data

Results flagged for a closer look

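Hbb-y, an embryonic globin of red blood cells, differed between spinous and basal cells of E15.5 in its response to MOF loss. Its log2 fold change in spinous cells was higher by 4.89 (adjusted p = 0.049 by edgeR with the library as a block), and it was the 1 gene called of 12848. Of the 509 UMIs of Hbb-y in the spinous cells of MOF cKO replicate 6, 494 (97.1%) lay in 1 cell. With library size alone, and with cells chosen by CPM, no gene was called.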

How the results depend on the processing

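Some alternatives were chosen after seeing the data: no upper limit on detected genes, the largest cell of each library left out, and cells under 0.5% mitochondrial UMIs left out or taken alone. At E15.5 the 0 calls became 26 with DESeq2 and 399 without a filter on low counts, and 0 to 1668 with 1 library left out. At E16.5 the 208 calls became 364 with library size alone, 523 without a filter, 327 with cells chosen by CPM, 361 without the largest cells, 66 without the upper limit, 1 without mitochondria-poor cells, and 135 to 1040 with 1 library left out. With the replicate block they became 321, but, although the study describes pairs with littermate controls, no label ties a number to a litter, and the deviations of same-numbered libraries had a correlation of -0.043. No paired analysis was possible at E15.5, where the groups share no replicate number. Over both stages the 53 calls became 162 with DESeq2, 478 without a filter, 119 without cells holding markers of other lineages, 88 without the largest cells, 9 without mitochondria-poor cells, and 0 to 642 with 1 library left out. The 0 genes that differed between stages became 2 with library size alone, 2 with cells chosen by CPM, and 0 to 58 with 1 library left out. The 1 gene that differed between cell classes became 0 with library size alone, 0 with cells chosen by CPM, and 3 to 865 with 1 library left out. At E17.5 the 87 genes past 2-fold became 43 with a pseudocount of 10 CPM, 434 with at least 20 UMIs and 185 without the upper limit.

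The spinous share, cKO minus control, was -0.981 percentage points at E15.5 (-2.03 to 0.0671 with 1 library left out, reversed without control replicate 3). At E16.5 it was -1.04, and -0.810 with a mitochondrial limit of 5%, -0.745 with cells chosen by CPM, -0.653 with cells thinned to 5000 UMIs, and -1.23 to -0.849 with 1 library left out. Without E15.5 MOF cKO replicate 5, the log2 fold changes of Cdkn1a and Phlda3 turned to -0.50 and -0.27, where those without replicate 6 were 1.34 and 1.68. At E16.5, without mitochondria-poor cells, those of Klf4, Ovol1 and Krt5 turned to -0.14, -1.30 and 0.31, and with library size alone that of Ovol1 to -0.044, none past the threshold. Cpa3 and Cma1 turned to -1.82 and -1.48 at E17.5 without the upper limit. The log2 fold change of the median gene moved with library size alone from -0.01 to -0.13 at E15.5, from -0.05 to -0.61 at E16.5 and from -0.09 to -0.30 over both stages. Where no cause is given, the cause was not tested. Depth limited Kat8, which had few UMIs at E16.5, and the E16.5 cKO values, which rest on 8 and 10 cells.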
